A study of Gorilla gorilla with 12 samples.

Results

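Cultured gorilla fibroblast lines differ in their level of IGFBP5, the gene for insulin-like growth factor binding protein 5, and the lines at both ends of that range were compared over all other genes. The 11 arrays of lines harvested under standard conditions were ranked by the deposited intensity of 1 IGFBP5 probe set, and the groups were chosen by those values alone. The 4 highest (called IGFBP5-high lines here) and the 4 lowest (IGFBP5-low lines) entered the comparison, which is 8 of the 12 arrays in the series. The high group held the lines labelled male 3, male 4, female 3 and female 2, from donors aged 24, 18, 35 and 19 years. The low group held female 5, male 5, female 1 and male 1, from donors aged 30, 3, 19 and 19 years. Between the groups stood female 6, female 4 and male 2, from donors aged 2, 26 and 26 years. All of these donors are labelled as normal gorillas of the species Gorilla gorilla, no line received a treatment in the labels, and the numbers only name the lines. The remaining array held a second culture of male 2, harvested at 50% confluence. Each standard array has its own title and is taken as 1 line of 1 animal, though the labels do not name the animals. The spread within a group is thus that between lines and includes culture, donor and array. The sources used here give neither the tissue site of the biopsies nor the passage of the lines.

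IGFBP5 is a secreted protein that binds the insulin-like growth factors IGF1 and IGF2 and also attaches to extracellular matrix. In fibroblasts it is made and released into the medium, where proteases cut it and so free the growth factor, while matrix proteins such as osteopontin and thrombospondin can hold it near the cell. It is known for links to fibrosis, cellular senescence and growth arrest, and it has effects that do not need an insulin-like growth factor.

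The probe set that chose the groups had intensities of 8433, 7198, 6621 and 4410 in male 3, male 4, female 3 and female 2. It had 558, 509, 463 and 312 in female 5, male 5, female 1 and male 1. The mean was 6666 ± 1683 (SD, n = 4) in the high and 460.5 ± 106.3 (SD, n = 4) in the low lines, a ratio of 14.5, given as a description since this gene defined the groups. At the edges of the rule, the lowest high line had 4410 and the next line below it, female 6, had 2609. The lowest line left between the groups, male 2, had 1134, and the highest low line had 558. IGFBP5 had 877 in the 50% confluent culture of male 2. A second probe set of the gene gave 6447, 4678, 5702 and 3795 in the high and 390, 399, 317 and 213 in the low lines, and ranking by it chose the same 8 lines. Of the 4 other IGFBP5 probe sets, 2 were higher in every high line than in any low line, while 1 was near the floor on all arrays and 1 had a mean of 138 in the high and 158.75 in the low lines.

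**Figure D1:**
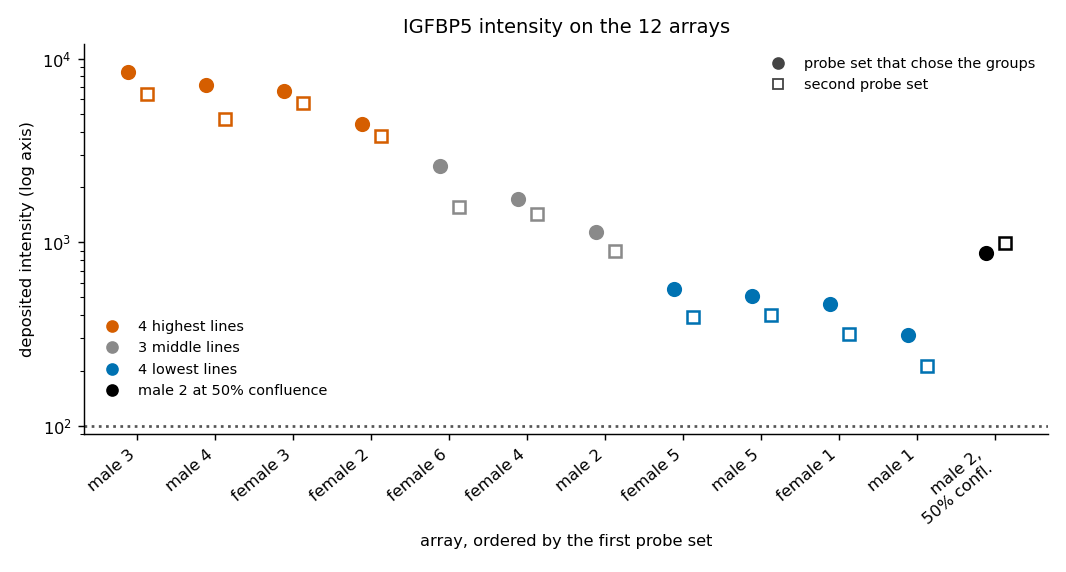
Deposited intensity of 2 IGFBP5 probe sets (filled circles, the set that chose the groups; open squares, a second set) on each of the 12 arrays, on a log axis; the dotted line is the floor of the deposited values, 100. The 4 high lines lie between 4410 and 8433 on the first set, the 4 low lines between 312 and 558, and the 3 middle lines in a gradual series between them.

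Array quality and cell identity were read first. The lowest deposited value was 100 on every array, so a value of 100 is an upper limit, and between 41.4% and 48.8% of probe sets stood there in the high lines against 41.8% to 44.8% in the low lines. The 3' to 5' intensity ratio of GAPDH, which departs from 1 where RNA is degraded, was 0.869 to 1.34 in the high and 0.821 to 1.3 in the low lines. That of ACTB was 0.935 to 1.19 and 0.672 to 1.17. Of 14 fibroblast marker genes on the array, none was at the floor throughout the 8 lines, and their summed intensity above the floor spanned 84649 to 129196 in the high and 91001 to 124220 in the low lines. Of 19 leukocyte markers, 9 were at the floor in all 8 lines, among them the pan-leukocyte gene PTPRC, the T cell gene CD3D and the myeloid genes ITGAM and LYZ. RPS4Y1, a Y-linked ribosomal protein gene, had 4363, 3049, 2595 and 100 in male 3, male 4, female 3 and female 2, so the line labelled female 3 carried a signal like that of the male lines, and in the low lines it had 100, 4185, 100 and 3976 in female 5, male 5, female 1 and male 1. Some values that moved when the line labelled female 3 was left out are therefore also given without it. This was not done for every gene, so a value given alone is not thereby stable to its removal. Without that line the log2 difference (high minus low lines) was −1.57 instead of −2.34 for ACTC1. It was 0.78 instead of 1.13 for HLA-E and 0.74 instead of 1.05 for MAFF. For APOE it rose from 1.32 to 1.94 and for MFAP4 from 2.45 to 3.15.

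Of 7530 probe sets tested, 12 differed between IGFBP5-high and IGFBP5-low lines with limma at an adjusted p under 0.05. This is 0.159% of those tested, with 10 probe sets higher in the high lines (0.133%) and 2 lower (0.0266%). The 12 probe sets stand for 9 genes. Higher in the high lines were the collagen-degrading protease CTSK, the cell cycle regulator CCND2, the signalling phosphatase DUSP4, the lipopolysaccharide co-receptor CD14, the neuropeptide gene GAL, the phospholipid transfer protein gene PLTP, the receptor-like gene PDGFRL and PHLDA1, while the interleukin 7 receptor gene IL7R was lower. Without the line labelled female 3, 4 higher and 0 lower probe sets passed, and leaving out any 1 of male 3, female 2, female 5, male 5 or male 1 left 0 in both directions, with 237 to 300 higher and 241 to 340 lower probe sets at an unadjusted limma p under 0.05, so the list of calls depends on single lines. With no adjustment, limma gave p under 0.05 for 586 probe sets, 292 higher and 294 lower, a split that was 332 and 195 with median scaling. In 7 of the 14 other settings, which the closing section lists, at most 4 of these 12 probe sets were called. None of the 12 changed direction in any setting that tested it. The groups of all 12 did not overlap, so leaving out lines could not reverse them, and the kept direction is no separate support.

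**Figure D2:**
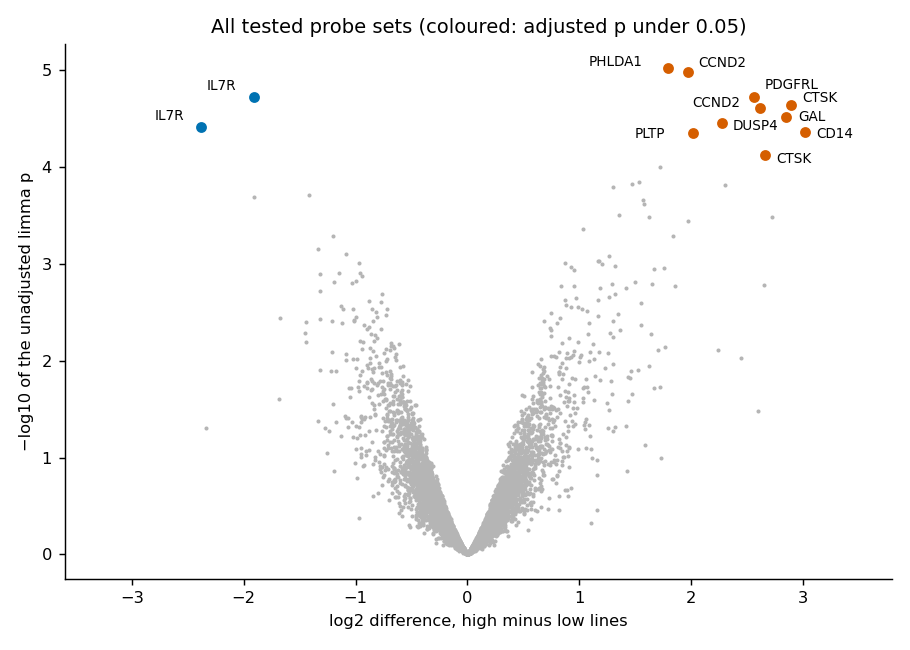
Each of the 7530 tested probe sets by its log2 difference (IGFBP5-high minus IGFBP5-low lines) and the −log10 of its unadjusted limma p; orange and blue mark the 10 higher and 2 lower probe sets with an adjusted p under 0.05. The coloured points on the right reach 3.02 (CD14), and both points on the left belong to IL7R.

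CTSK encodes cathepsin K, a lysosomal and secreted cysteine protease that digests collagen and elastin. Its intensities were 8861, 10876, 10255 and 5616 in male 3, male 4, female 3 and female 2, against 812, 1188, 2910 and 694 in female 5, male 5, female 1 and male 1. Every high line lay above every low line, and female 1 was the highest of the low group. The log2 difference was 2.89 ± 0.41 (SE, n = 4 and 4), or 7.42-fold (limma adjusted p = 0.0308). Its second probe set differed by 2.66 ± 0.44 (adjusted p = 0.0479), and the third by 1.84 ± 0.38, which missed the threshold (adjusted p = 0.14). PDGFRL, which encodes a protein similar to the ligand-binding part of the platelet-derived growth factor receptors, had 554, 1428, 849 and 804 in the high and 100, 280, 133 and 138 in the low lines. Male 4 was its highest line and both groups were apart, by 2.56 ± 0.36 on the log2 scale (limma adjusted p = 0.0308).

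CD14 encodes a co-receptor of toll-like receptor signalling that is best known from monocytes and is also made by some fibroblasts. It had 1576, 1092, 340 and 1673 in male 3, male 4, female 3 and female 2, and 109, 100, 213 and 100 in female 5, male 5, female 1 and male 1. Female 3 was well below the other high lines, and the groups did not overlap. CD14 had the largest log2 difference of the called probe sets, 3.02 ± 0.46 (limma adjusted p = 0.0308), and 2 of its low values were at the floor. All 7 tested leukocyte markers had a positive difference, and CD14 was the member called. Summed over the 19 leukocyte markers, intensity above the floor was 1456 to 2404 in the high and 391 to 982 in the low lines, without overlap. Without CD14 the sums were 652 to 1216 and 391 to 869, which overlapped. The part of such cells in the differences was not tested. PTPRC, CD3D, ITGAM and LYZ stood at 100 in all of these lines. CD68, a lysosomal gene of macrophages that other cells also express, had 522 to 1080 in the high and 420 to 688 in the low lines (log2 difference 0.42 ± 0.27, limma adjusted p = 0.797, and 0.21 without the line labelled female 3).

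PLTP encodes a secreted protein that moves phospholipids between lipoproteins. Its intensities were 4251, 5765, 3289 and 3109 in the high lines and 611, 1020, 1377 and 1161 in the low lines. The lowest high line was thus above the highest low line, female 1, and the log2 difference was 2.01 ± 0.31 (limma adjusted p = 0.0308). GAL encodes galanin, a neuropeptide precursor. It had 1255, 1308, 291 and 796 in male 3, male 4, female 3 and female 2, and 100, 100, 113 and 130 in the low lines. It was at or close to the floor in all low lines, and its log2 difference was 2.85 ± 0.42 (limma adjusted p = 0.0308). GAL was also at 100 in all 3 middle lines, so its high intensities were found in the 4 high lines and, at 333, in the 50% confluent culture.

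CCND2, a D-type cyclin that partners with CDK4 and CDK6 in the G1 phase, was called by both of its probe sets. One of them had 1036, 637, 2693 and 1096 in male 3, male 4, female 3 and female 2, and 157, 206, 267 and 166 in the low lines. Its log2 difference was 2.62 ± 0.38 and that of the other set 1.97 ± 0.26 (limma adjusted p = 0.0308 for both). The groups were apart on each set, with female 3 the highest line on one and female 2, at 1298, on the other. DUSP4, a nuclear phosphatase that inactivates mitogen-activated protein kinases, had 557, 685, 1351 and 734 in the high and 100, 265, 202 and 139 in the low lines. It differed by 2.27 ± 0.34 (limma adjusted p = 0.0308), with female 3 again the highest line. PHLDA1, a growth factor-responsive gene with a pleckstrin homology-like domain, had 258, 351, 531 and 311 in the high lines, and 3 of the 4 low lines were at the floor, with 117 in female 1. Its log2 difference was 1.79 ± 0.23 (limma adjusted p = 0.0308), and its intensities were low on all arrays. PHLDA1 was at the floor in every middle line too, so, as for GAL, its high lines helped it past the filter.

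IL7R, the receptor chain for the cytokines interleukin 7 and thymic stromal lymphopoietin, was the gene called lower. On its first probe set it had 254, 565, 372 and 405 in male 3, male 4, female 3 and female 2, and 1571, 1827, 1057 and 1588 in female 5, male 5, female 1 and male 1. Male 4 was the highest of the high and female 1 the lowest of the low lines, and the groups were apart. The log2 difference was −1.91 ± 0.27 on this set and −2.38 ± 0.36 on the second (limma adjusted p = 0.0308 for both). The 3 middle lines, at 438, 719 and 890, lay between the group means.

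**Figure D3:**
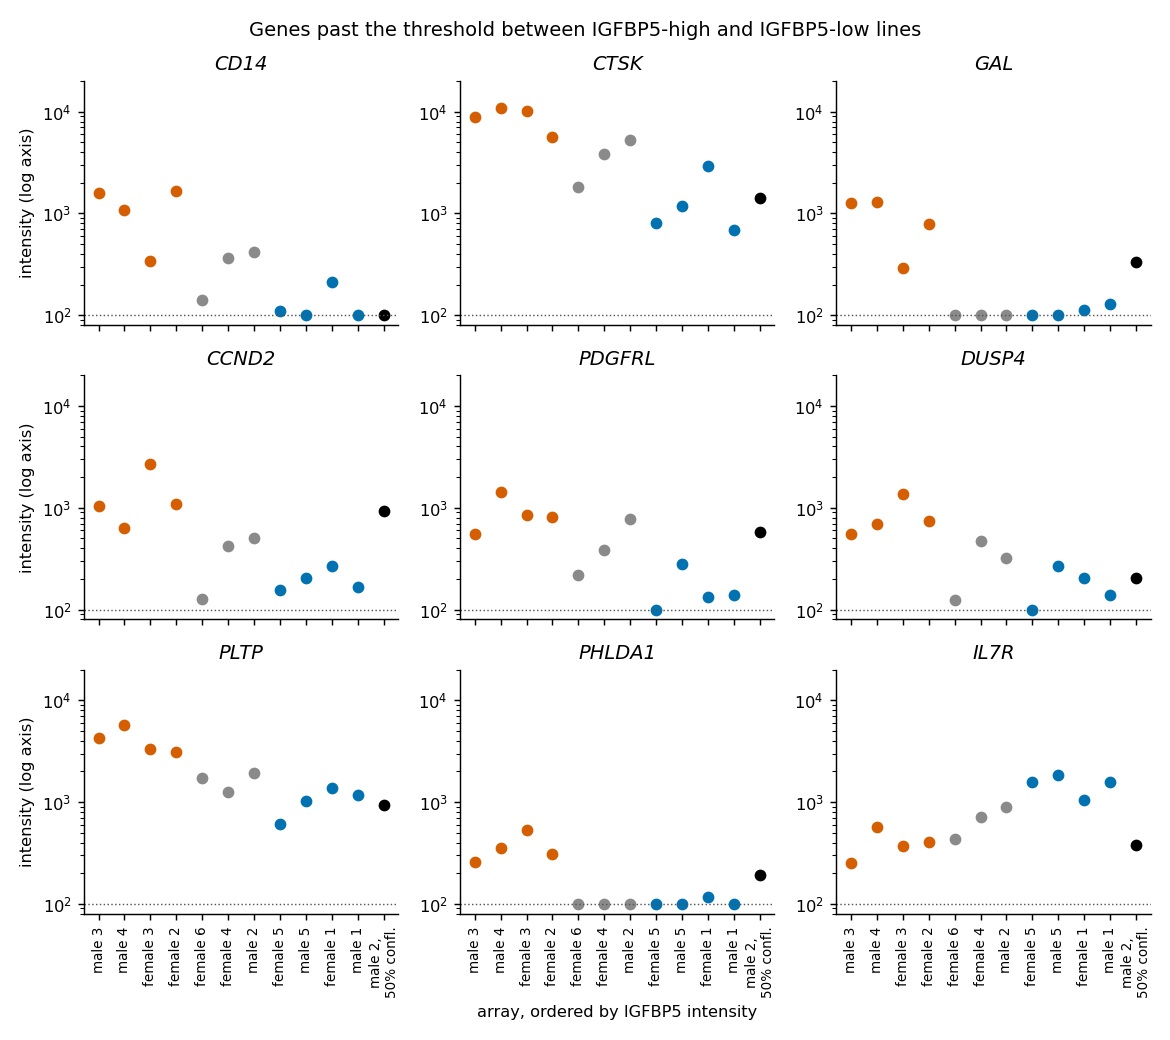
Deposited intensity (log axis) of the 9 called genes, 1 probe set each, in the 11 standard lines ordered by falling IGFBP5 and in the 50% confluent culture of male 2 (black); orange, gray and blue mark the high, middle and low lines, and the dotted line is the floor of 100. High and low lines do not overlap in any panel, while CTSK climbs from 1813 to 5242 over the middle lines as IGFBP5 falls.

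The middle lines and the half-confluent culture entered neither group of the comparison, though both took part in the normalization and the middle lines in the filter. For 5 of the 12 called probe sets at least 1 middle line lay outside the interval between both group means, as for GAL and PHLDA1, which were at the floor in all 3. Within the middle lines CTSK ran against the IGFBP5 order, with 1813 in female 6, 3840 in female 4 and 5242 in male 2. A slope of expression on log2 IGFBP5 over all 11 lines called 3 probe sets with a positive and 2 with a negative slope. In the 50% confluent culture of male 2, 7 of the 10 probe sets called higher were below their value in the standard culture of the same line, with a median log2 difference (half-confluent minus standard) of −0.425 against 0 over all probe sets tested. Both IL7R sets were lower there too. CTSK had 1418 at 50% confluence and 5242 in the standard culture, where IGFBP5 had 877 and 1134. With 1 array per condition there is no test of confluence. The sources used here do not state the confluence of the standard cultures.

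Of the other genes with the smallest p in the higher direction, none passed the threshold. SPRY2, an inhibitor of receptor tyrosine kinase signalling, had 529, 368, 261 and 225 in the high and 100 to 127 in the low lines, a log2 difference of 1.54 ± 0.27 (limma adjusted p = 0.0709). RARRES2, which encodes the chemoattractant chemerin, had 683, 994, 724 and 378 against 100, 100, 325 and 100, with female 1 apart from the other low lines (2.31 ± 0.41, adjusted p = 0.0709). CPB1, a carboxypeptidase gene, and RRAGD, a GTPase that acts in nutrient sensing, differed by 1.47 ± 0.26 and 1.30 ± 0.23 with the same adjusted p, and RRAGD was at the floor in all low lines. All 4 genes had high and low lines that did not overlap, as 1.86% of all genes tested did in this direction. They were picked for small p in the same comparison, so this adds no support.

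In the lower direction BGN came next after IL7R. It encodes biglycan, a small proteoglycan of collagenous matrix that binds growth factors and collagen. BGN had 7340, 7617, 2408 and 4778 in male 3, male 4, female 3 and female 2, and 16009, 16085, 19464 and 33087 in female 5, male 5, female 1 and male 1. Every low line was at least as bright as 16009 and every high line at most 7617, with 18573 to 20013 in the middle lines, which therefore sat with the low group. The log2 difference of −1.91 ± 0.35 missed the threshold (limma adjusted p = 0.0819) and was −1.54 without the line labelled female 3. The actin regulator CHN1 differed by −1.34 ± 0.29 (adjusted p = 0.183) and the transcription factor KLF7 by −1.08 ± 0.24 (adjusted p = 0.198). FOXD1, a forkhead factor of the mesenchyme, had 209 to 436 in the high and 436 to 891 in the low lines and 700, 606 and 751 in the middle lines (−1.19 ± 0.29, adjusted p = 0.233). CADM1, CRIP2, DAGLA, DPF1, TULP3, ANXA2 and EEF1A2 completed the 12 smallest p values, with log2 differences between −0.96 and −1.32 and adjusted p from 0.209 to 0.247. The second probe set of EEF1A2 differed by only −0.25 ± 0.23.

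The IGF system itself was read by role. Among 13 tested genes of the ligands, receptors and their signalling, 8 had a positive and 5 a negative difference, none passed and the median was 0.13, against −0.02 over the 5481 genes tested, 48.1% of which were positive. No member of the list had an unadjusted limma p under 0.05, and with 1 line left out the median ran from −0.03 without male 1 to 0.27 without female 2. It was −0.06 with the filter at the 60th percentile. At the level of genes, with 1 probe set each, 8 of the 5481 were called higher (0.146%) and 1 lower (0.0182%), which is the background for the counts in lists. IGF1 was at the floor in all high lines and reached 215 in male 5 and 191 in female 1. IGF2 had 193, 328, 255 and 420 in the high and 310, 356, 353 and 295 in the low lines (−0.17 ± 0.24, limma adjusted p = 0.921, and −0.10 without the line labelled female 3). The receptor genes IGF1R (−0.15 ± 0.24), INSR (0.30 ± 0.26) and IGF2R (0.53 ± 0.31), which clears IGF2 from the cell surface, had overlapping groups, and IGF2R differed by 0.30 without the line labelled female 3.

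The other IGF binding proteins had no common direction. Of 10 tested genes of that family and its relatives, 4 differences were positive and 6 negative, with a median of −0.02 that changed sign under median scaling and was −0.09 without male 5 and 0.19 without the line labelled female 3, and 2 had an unadjusted limma p under 0.05. IGFBP3, the main binding protein of serum, had 14787, 18465, 18608 and 16884 in male 3, male 4, female 3 and female 2, and 8060, 9538, 10785 and 13618 in female 5, male 5, female 1 and male 1. These groups did not overlap, and the middle lines had 12492, 8432 and 6410. The log2 difference was 0.87 ± 0.20 on this and 0.84 ± 0.20 on the second probe set, neither past the threshold (limma adjusted p = 0.209 and 0.233). Non-overlapping groups with higher values in the high lines were found for 102 of all 5481 genes (1.86%) and with lower values for 133 (2.43%). At an unadjusted limma p under 0.05, 221 of the 5481 were higher and 218 lower. These are the background for such counts in all lists.

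CCN5, a matricellular protein of the connective tissue growth factor family that carries an IGF-binding domain, was the other member with separate groups. It had 1979, 1634, 2032 and 1450 in the high and 100, 413, 780 and 154 in the low lines, with 780 in female 1. Its log2 difference of 2.72 ± 0.53 missed the threshold (limma adjusted p = 0.104). The 3 middle lines ran from 344 in female 6 through 1157 to 2412 in male 2, above every high line, and the 50% confluent culture of male 2 had 243. CCN2, connective tissue growth factor itself, differed by −0.33 ± 0.35, and by −0.08 without the line labelled female 3. IGFBP2 varied most between lines within groups, with 529, 3351, 4341 and 8007 in the high and 331, 4774, 1164 and 686 in the low lines (1.43 ± 0.89, adjusted p = 0.791). IGFBP4, IGFBP6 and IGFBP7 differed by −0.14 ± 0.28, −0.45 ± 0.48 and 0.77 ± 0.52, with overlapping groups. Without the line labelled female 3, IGFBP4 and IGFBP6 differed by −0.36 and −0.83.

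The proteases that cut IGF binding proteins and the matrix partners of IGFBP5 had the highest median of the 3 IGF lists. Of 20 tested genes 15 had a positive difference, the median was 0.43, and 3 had separate groups (1.86% of all genes tested did in this direction). None passed the limma threshold and 5 had an unadjusted p under 0.05. The 3 with separate groups are both proteases of the first complement component and their inhibitor. C1S, a serine protease that also cleaves IGFBP5, had 8295, 8144, 7285 and 3329 in male 3, male 4, female 3 and female 2, and 994, 1316, 3130 and 1787 in female 5, male 5, female 1 and male 1. Female 2 and female 1 nearly met, and the log2 difference was 1.97 ± 0.39 (limma adjusted p = 0.11). C1R, the protease that activates C1S, had 4712, 4458, 2785 and 2320 against 600, 928, 2097 and 1182 (1.67 ± 0.38, adjusted p = 0.212). SERPING1, the inhibitor of both proteases, had 3734, 3510, 3377 and 2710 against 620, 1501, 1430 and 1161 (1.58 ± 0.30, adjusted p = 0.0859).

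Among the other members of that list, the lysosomal protease CTSD had 794, 1963, 1452 and 1277 in the high and 608, 588, 869 and 708 in the low lines (0.93 ± 0.29, limma adjusted p = 0.447). TNC, a matrix glycoprotein, differed by 0.94 ± 0.41. SPP1, or osteopontin, reached 1328 in female 2 but only 202 to 266 in the other high lines (1.30 ± 0.60). The secreted serine protease HTRA1 had 7280, 10048, 5624 and 8520 against 9067, 5614, 11288 and 7142, a difference of −0.03 ± 0.29 that was 0.13 without the line labelled female 3. The IGFBP4 and IGFBP5 protease PAPPA differed by 0.08 ± 0.36 at low intensities, and by −0.09 without that line. THBS1, or thrombospondin, differed by −0.76 ± 0.46 with 6454 in female 1. The median of this list stayed positive in all 21 other settings it was computed in, between 0.11 and 0.59.

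**Figure D4:**
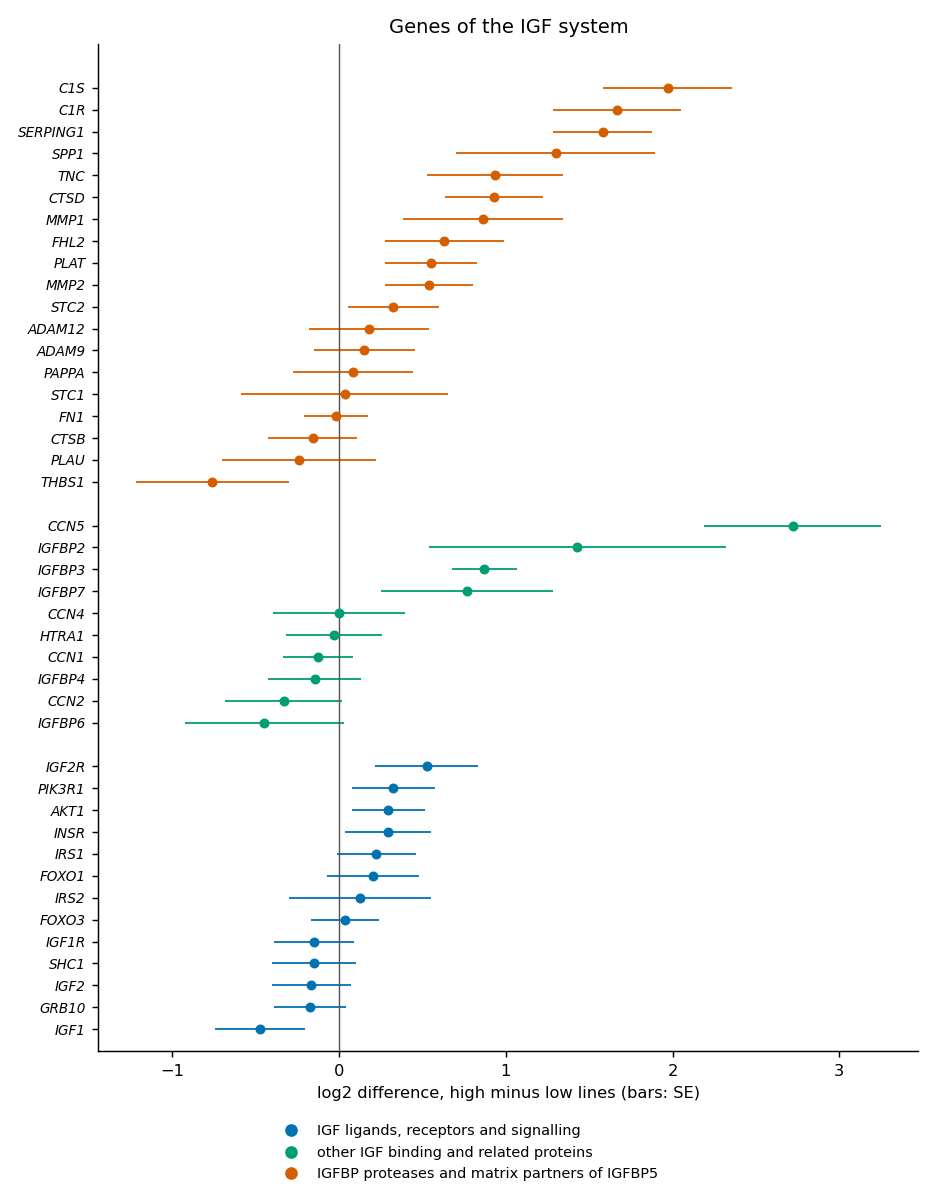
Log2 difference (IGFBP5-high minus IGFBP5-low lines, 4 against 4) with its standard error for every tested gene of the 3 IGF lists, 1 probe set each. A gene in both the binding protein list and the protease and partner list is drawn once. C1S, C1R, SERPING1 and CCN5 lie furthest to the right, and the ligands and receptors lie between −0.47 and 0.53.

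Other matrix genes showed no common direction. The 8 tested interstitial collagens split 4 and 4, with a median of −0.08 that was −0.20 without male 4 and 0.04 without female 2. The 14 genes of collagen processing had 6 positive differences, with a median of −0.08 that was −0.03 without the line labelled female 3 and 0.01 without male 1. COL3A1, a fibrillar collagen, had 2402 to 2768 in the high and 2843 to 5193 in the low lines, without overlap in these deposited intensities (−0.48 ± 0.24, limma adjusted p = 0.705). After normalization they did overlap, with male 4 of the high lines at 11.4819 and male 5 of the low lines at 11.4799 on the log2 scale. LOXL1, an enzyme that cross-links elastin, had 2118, 3431, 1964 and 3655 against 5495, 7007, 4092 and 8708 (−1.13 ± 0.29, adjusted p = 0.292). MFAP4, a microfibril-associated protein, had 6674 and 4295 in male 3 and male 4 but 417 and 869 in female 3 and female 2, against 146 to 553 in the low lines (2.45 ± 0.78, adjusted p = 0.447). Among proteoglycans, the heparan sulfate proteoglycan gene GPC3 had 1140, 823, 688 and 286 in the high and 100 to 333 in the low lines (1.85 ± 0.45, adjusted p = 0.233).

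Of 19 tested matrix proteases and inhibitors, 13 had a positive difference, with a median of 0.29, and CTSK was the only member called. MMP3, or stromelysin, had 15064 in female 3 and 1024 to 2215 in the other high lines, against 1807, 163, 1918 and 100 in female 5, male 5, female 1 and male 1 (2.59 ± 1.06, limma adjusted p = 0.598, and 1.78 without the line labelled female 3). TIMP3, a matrix-bound inhibitor of metalloproteinases, differed by 1.13 ± 0.36 (adjusted p = 0.447). THBS2, another thrombospondin, differed by 1.44 ± 0.50, and the gelatinase MMP2 by 0.54 ± 0.26.

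Genes of the contractile apparatus mostly had lower values in the high lines. Of 20 tested, 17 differences were negative and the median was −0.50, with 4 whose groups did not overlap (2.43% of all genes tested in this direction). None passed the limma threshold, and 6 had an unadjusted p under 0.05. CSRP1, a cytoskeletal protein of smooth muscle, had 2628, 2380, 3087 and 3316 in the high and 4288, 5940, 3386 and 5799 in the low lines (−0.72 ± 0.23, limma adjusted p = 0.457). SMTN, or smoothelin, had 1495 to 1608 against 1758 to 3381 (−0.63 ± 0.23), but −0.17 ± 0.26 on its second probe set. TGFB1I1 and the focal adhesion protein gene VCL differed by −0.56 ± 0.23 and −0.71 ± 0.30. The list's mean log2 level was 10.41 to 11.08 in the high, 10.8 to 11.58 in the low and 11.49 to 11.91 in the middle lines, so the middle lines were at the upper end. ACTC1, the cardiac actin gene, had 556, 2292, 181 and 2618 in the high and 5272, 18139, 7278 and 546 in the low lines (−2.34 ± 1.06, adjusted p = 0.638). The median of the contractile list lay between −0.62 and −0.28 in 21 other settings.

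Cell cycle genes split by phase. Of 38 tested genes of G2 and mitosis, 36 had a negative difference and the median was −0.46. Of 39 tested genes of the S phase, 32 had a positive difference and the median was 0.29. No member of either list passed the limma threshold, and 2 of each had an unadjusted p under 0.05. Over all 5481 genes, 221 were higher and 218 lower at that p, so these counts do not stand out. RPA2 of the single-strand DNA binding complex was the 1 S phase gene with separate groups (0.83 ± 0.23, limma adjusted p = 0.317). In this direction 1.86% of all genes tested had separate groups. CDKN3, a phosphatase of the mitotic list, had 104, 268, 100 and 238 in the high and 439, 668, 250 and 613 in the low lines (−1.45 ± 0.40, adjusted p = 0.318). CKS2 and CDC20 differed by −0.83 ± 0.35 and −0.99 ± 0.48, or by −0.57 and −0.56 without the line labelled female 3. The mean log2 level of the S phase list was 9.59 in male 3, 8.70 in male 4, 7.66 in female 3 and 8.47 in female 2, against 7.72 to 8.86 in the low lines. Without male 3 its median was −0.02 and without female 1 it was 0.02, so the positive S phase median rests on those lines, while it was 0.62 without the line labelled female 3 and 0.49 without male 1. The mitotic median was −0.20 without the line labelled female 3, −0.79 without female 1 and −0.21 with adult donors alone. The mean of the mitotic list was 7.39 in female 3, below 8.01 to 9.37 in the low lines, and 8.62 to 8.65 in the other high lines.

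Inflammatory genes differed widely among the high lines. Of 17 tested cytokines and chemokines, 13 had a positive difference, the median of 0.63 was the highest of the lists with at least 5 tested genes, and none passed the limma threshold, with 2 at an unadjusted p under 0.05. The median was 0.38 without male 3 and 0.13 without the line labelled female 3. CXCL8, or interleukin 8, had 2133, 427, 565 and 100 in male 3, male 4, female 3 and female 2, and was at 100 in all low and middle lines. Female 2 was thus like the low lines, and the difference of 2.24 ± 0.69 missed the threshold (limma adjusted p = 0.436). ICAM1, an adhesion receptor for leukocytes, and TNFAIP3, an inhibitor of NF-kappaB, differed by 0.75 ± 0.30 and 0.63 ± 0.30, and ICAM1 by 0.48 without the line labelled female 3. The mean log2 level of the list was 8.77, 8.12, 9.26 and 7.54 in the high and 7.54 to 8.13 in the low lines, so the groups overlapped.

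Among signalling lists, 12 of 17 WNT pathway genes had a negative difference, with a median of −0.36, which was −0.04 with adult donors alone, −0.20 without female 1 or male 5 and −0.57 without male 1. SFRP1, a secreted WNT inhibitor, ran the other way, with 1846, 194, 1621 and 767 in male 3, male 4, female 3 and female 2 against 100, 265, 100 and 100 (2.65 ± 0.64, limma adjusted p = 0.233), while the receptor gene FZD6 and the ligand genes WNT11 and WNT10B differed by −1.09 ± 0.34, −0.63 ± 0.27 and −0.66 ± 0.30. Of 25 genes of the TGF-beta and BMP pathway 12 were positive. TGFB3, a transforming growth factor ligand, had 390, 370, 494 and 408 in the high and 245, 256, 145 and 126 in the low lines, without overlap (1.20 ± 0.27, adjusted p = 0.209), and GDF15 differed by 1.46 ± 0.49. Of 27 adhesion genes 10 were positive, among them the integrin gene ITGB5, with 8951 to 13949 against 5413 to 6875 and no overlap (0.93 ± 0.21, adjusted p = 0.212), while ITGA10 differed by −0.78 ± 0.20. Of 32 growth factors and receptor kinases 17 were positive, with FGFR1 at 5081 to 7375 in the high and 2381 to 4841 in the low lines (0.82 ± 0.25) and AXL at −0.90 ± 0.32, which was −0.59 without the line labelled female 3. DDR2, a collagen receptor kinase, differed by 0.82 ± 0.28, and the growth factor gene PTN by −0.95 ± 0.40.

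The remaining lists held few large differences. All 7 tested metallothioneins were positive, with a median of 0.45 and none past the threshold; their probe sets can share sequence, so they are not 7 separate measurements, and the median was 0.22, 0.27 and 0.29 without male 5, male 4 and the line labelled female 3. Of 16 adipogenic genes 13 were positive (median 0.22, and 0.35 without female 1), with AGT, or angiotensinogen, at 838, 316, 145 and 299 in the high and 143, 100, 100 and 100 in the low lines (1.55 ± 0.43, limma adjusted p = 0.325), and APOE at 1.32 ± 0.60. Of 21 immediate early genes 9 were positive, led by DUSP6, a cytoplasmic phosphatase of ERK kinases, with 481, 257, 620 and 238 against 138, 100, 211 and 100 (1.50 ± 0.36, adjusted p = 0.233). MAFF and DUSP5 differed by 1.05 ± 0.38 and 0.65 ± 0.30, and KLF6 by −0.61 ± 0.28. Of 21 genes of growth arrest and senescence 12 were positive, with a median of 0.11 that was 0.01 without male 1 and 0.21 without male 3. Of 14 HOX genes, which mark position along the body, 4 were positive, and HOXC4 differed by −0.79 ± 0.26. Of 32 mesenchymal and positional factors the regulator ZEB1 had separate groups (1.16 ± 0.31, adjusted p = 0.315), as 1.86% of all genes tested did in this direction. CA12, a carbonic anhydrase of the hypoxia list, reached 5118 in female 3 (1.52 ± 0.51, and 0.95 without that line), and HLA-E differed by 1.13 ± 0.44.

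Pigment cell genes were read beside these as markers of another cell type. PMEL, a melanosome gene, had 234, 433, 100 and 235 in male 3, male 4, female 3 and female 2 and was at 100 in all low and middle lines (1.18 ± 0.37, limma adjusted p = 0.439). MLANA and MITF differed by 0.62 ± 0.25 and 0.74 ± 0.27 (limma adjusted p = 0.597 and 0.522). Of the 9 tested neural, glial and melanocyte markers, 5 had a positive and 4 a negative difference. Their median was 0.24, and 0.01 with adult donors alone. Over all 17 neural, glial and melanocyte markers on the array, the summed intensity above the floor was 3539 to 7414 in the high and 3624 to 4782 in the low lines, and 6 of them were at the floor in all 8. The part of such cells in the differences above was not tested.

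**Figure D5:**
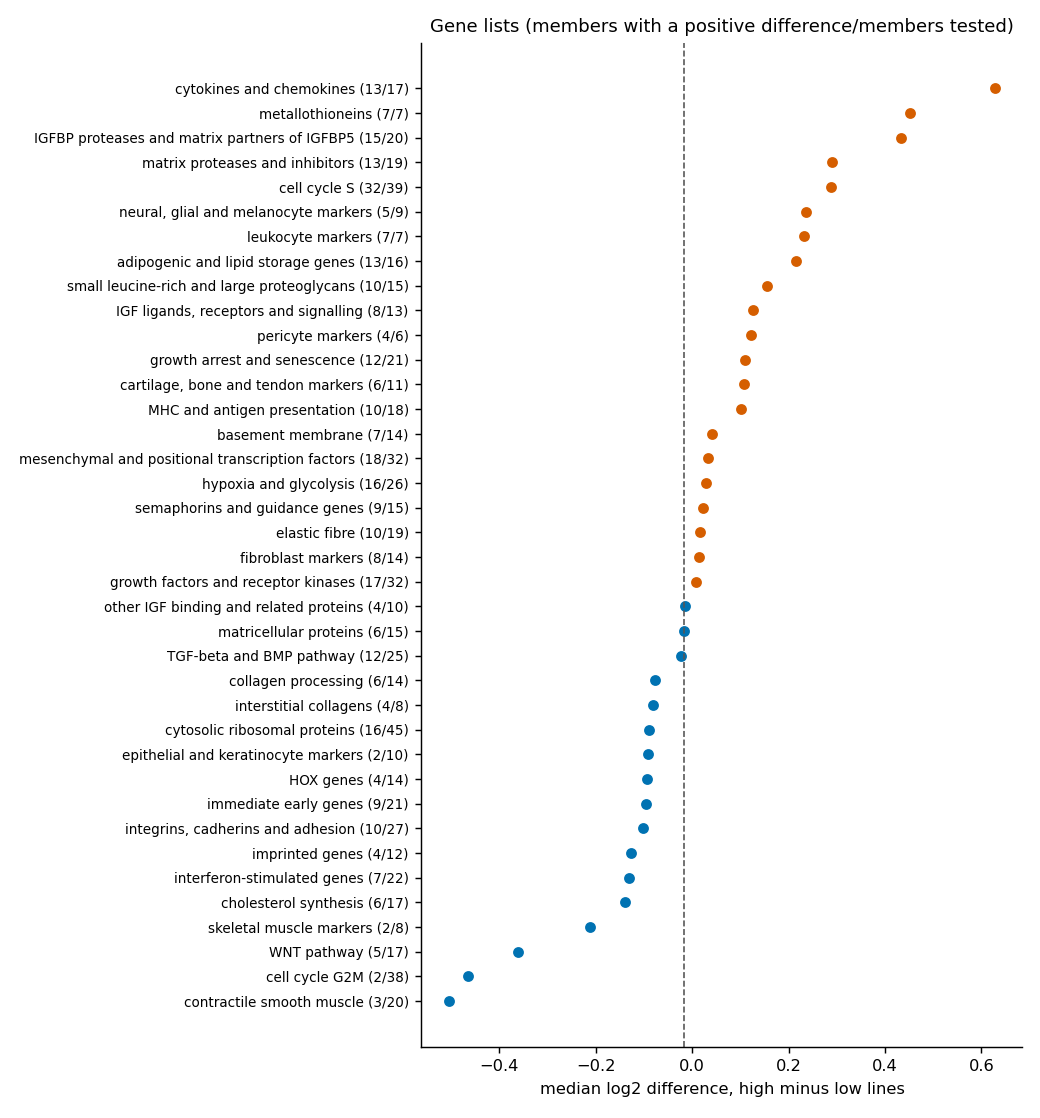
Median log2 difference (IGFBP5-high minus IGFBP5-low lines) of each gene list with at least 5 tested genes; the numbers in parentheses are members with a positive difference over members tested, and the dashed line is the median of all 5481 genes, −0.02. Cytokines and chemokines stand at 0.63 on one side, and the contractile and mitotic lists at −0.50 and −0.46 on the other.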

How the data were processed

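The deposited values are array intensities on a linear scale, 1 per probe set and array, as the authors deposited them, with a floor at 100 in the values themselves. The sources used here name neither the summarising software nor scan dates or other batches. Intensities of 12625 probe sets were taken to log2 and quantile normalized over 12 arrays. Probe sets were tested where the mean log2 over the 11 standard arrays exceeded the 40th percentile, after leaving out 67 control and all 6 IGFBP5 probe sets. That mean includes both groups, so a probe set near the floor elsewhere could pass through the group where it was high. The IGFBP5 ranking used unnormalized intensities. Groups of 4 were compared with limma 3.58.1 (lmFit and eBayes, R 4.3.3), two-sided, with Benjamini-Hochberg adjustment over all probe sets tested and a threshold of 0.05. p-values measure the spread between lines. Lists use 1 tested probe set per gene, the one with the highest mean. Whether groups overlap was read on the deposited intensities, while differences and p-values are on the normalized scale. The probe annotation gave 1 symbol for 10943 probe sets besides the controls, those of IGFBP5 included. Over all probe sets, controls included, it gave several for 545 and none for 1119. The RefSeq gorilla genes (assembly NHGRI_mGorGor1-v2.1, names alone) held 7742 of the 8229 symbols. Probes were designed on human sequence, so no gene's level is set against another's. No genome was used here. Of 1029 list genes, 851 had a probe set and 643 were tested.

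Named genes were the 12 with the smallest p in each direction with a mean intensity of at least 200 in the higher group, all genes past the threshold with separate groups, tested IGF genes, and up to 4 members of each other list by smallest p. Members, lists and groups were chosen with earlier results of these data known. In simulated arrays with 7530 probe sets, the comparison recovered 32% of changes of 1 and 88% of changes of 2 on the log2 scale. Alternatives covered normalization, floor, filter, covariates, array weights, group size, ranking, slope and leaving out each line. Log2 differences are high minus low, except those between the cultures of male 2.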

Additional observations from a re-analysis of the deposited data

Results flagged for a closer look

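In the groups of 4 lines, single lines lay far from the other 3 by Dixon's criterion for 21 of 208 sets of values. Where the other 3 lines were at the floor, any value above it met the criterion, however small. This was so for AGT, CFB, CPB1, PHLDA1, RARRES2 and SFRP1 in the low lines and for CADM1 and DPF1 in the high lines. Sets with all 4 lines at the floor could not meet it. The count therefore cannot be set against the 1 in 20 that chance gives. Values here are normalized log2 intensities.

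Female 1 stood apart in the low group. It was at 7.64 for CD14 (next line 6.80), at 8.27 for RARRES2 and at 6.76 for PHLDA1, where the other 3 low lines were at the floor, 6.64, and at 12.32 for AXL, below the next line at 12.92. Without female 1, 7 higher and 3 lower probe sets were called.

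In the high group, male 4 stood apart for IL7R at 9.19 on the second probe set (next line 8.04) and FOXD1 at 8.73. It was also apart for the cyclin gene CCND1 at 13.33, below the other lines. CADM1 at 7.34 and DPF1 at 6.67 met the criterion in male 4 because the other high lines were at the floor. The deposited intensity of DPF1 there was only 104. Female 3 stood apart for CPB1 at 8.91, RRAGD at 8.55 and IGFBP4 at 14.6. Female 2 was low for C1S at 11.75 (next line 12.87), high for SPP1 at 10.37, and at the floor, 6.64, for RPS4Y1, where the other 3 high lines, among them the line labelled female 3, were at 11.33 or more. Male 3 was high for RPA2 at 9.73.

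In the low group, male 1 was high for SPP1 at 8.54. It was also above the floor for the complement gene CFB at 8.30 and for CPB1 at 6.77, where the other 3 low lines were at the floor. The deposited intensity of CPB1 in male 1 was only 104. Male 5 was high for SFRP1 at 7.97 and female 5 for AGT at 7.17, each with the other 3 lines at the floor.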

How the results depend on the processing

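No paired analysis was possible because the labels give no replicate numbers that tie lines of the groups together. In the calls (10 higher, 2 lower), no normalization gave the same 12 probe sets. Ranking by the second IGFBP5 probe set chose the same 8 lines and so repeated the main fit. Its equal result was fixed in advance, though it is counted among the other settings throughout. Median scaling gave 18 higher and 2 lower, 3 groups over 11 arrays 21 and 4, the 60th percentile 10 and 2, and array weights 10 and 3. The slope on IGFBP5 gave 3 and 2, and age as covariate 1 and 0. Labelled sex as covariate gave 8 and 2. It entered female 3 as female despite the RPS4Y1 signal of that line, so it does not show whether the calls are stable to sex. A floor of 200, no filter, 3 highest against 3 lowest, 5 against 5, and adult donors ranked again gave 0 and 0 in limma, with 214 to 269 higher and 194 to 330 lower at an unadjusted p under 0.05. Leaving out 1 line gave 0 to 7 higher and 0 to 3 lower. The cause was not tested. Each called probe set was called in 6 to 8 of up to 14 settings and with 0 to 2 of 8 lines left out. None changed direction, which leaving out a line could not bring about where groups do not overlap. Some differences changed sign. HTRA1 was 0.0112 with median scaling, 0.0102 with array weights and 0.0128 with 5 against 5, and −0.20 to 0.15 with 1 line left out. PAPPA was −0.0395 at a floor of 200, −0.20 with 3 against 3, and −0.25 to 0.32 with 1 line left out. With 5 against 5, IGF1R was 0.0687 and RPS4Y1, at 1.10 in the comparison of 4 lines each, was −0.0492. With 1 line left out, IGFBP6 ran from −0.83 to 0.0198 and IGFBP4 from −0.36 to 0.0095. BGN, C1S, SERPING1, SPRY2, RARRES2, CPB1 and RRAGD passed with 3 groups over 11 arrays, and CCN5 with median scaling.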

Other observations

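Genes of the complement system beyond the first component were looked up after the values of C1S, C1R and SERPING1 had been seen, so they carry no test as a set. Of 24 complement genes listed, 10 were tested, and 3 of these are the genes that prompted the list. The 7 others all had a positive log2 difference, with a median of 0.54. Of these 7, CD59 had separate groups (1.86% of all genes tested did in this direction), 0 were called by limma and 4 had an unadjusted p under 0.05. The classical pathway gene C2 had 488, 406, 473 and 158 in male 3, male 4, female 3 and female 2, and 124, 100, 310 and 105 in female 5, male 5, female 1 and male 1, a difference of 1.30 ± 0.42 (SE, limma adjusted p = 0.477). CD55, which protects cells from complement, differed by 0.90 ± 0.34. CD59, another protector, had 1289 to 1340 in the high and 774 to 1161 in the low lines without overlap (0.50 ± 0.21), but its second probe set overlapped (0.26 ± 0.28). CLU and CFB differed by 0.54 ± 0.24 and 0.81 ± 0.42. Female 1, which had the highest C1S, C1R and C2 of the low lines, also had their highest CTSK, CCN5 and RARRES2.

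Genes that respond to receptor kinase signalling were also looked up after DUSP4, PHLDA1 and SPRY2 had been seen. Some of them restrain it, as the DUSP and SPRY genes do, while others, such as ETV5, EGR1, FOSL1 and CCND1, are not inhibitors of it. Apart from these 3, 11 such genes were tested, of which 8 had a positive difference, with a median of 0.42. Separate groups were found for 3 of the 11, DUSP6, ETV5 and SPRY1 (1.86% of all genes tested in this direction), while 0 were called by limma and 4 had an unadjusted p under 0.05. SPRY1 had 234, 148, 311 and 239 in the high lines and was at the floor in all 4 low lines, at least 2.25-fold higher, while male 2 of the middle lines had 526 (limma adjusted p = 0.209). ETV5, a transcription factor of the same response, had 354 to 590 against 156 to 270 (1.17 ± 0.26, limma adjusted p = 0.209). CCND1, the D cyclin most closely tied to growth factor signalling, had 11206, 6550, 14685 and 15450 against 3897, 3596, 3592 and 5738 on 1 probe set (1.57 ± 0.29, limma adjusted p = 0.0821), with 1.03 ± 0.27 and 0.89 ± 0.36 on its other 2. The set with 1.03 is the brightest and the one counted in the list. Its groups overlapped, with 10445 in male 4 and 11684 in male 1 (limma adjusted p = 0.292). FOSL1, DUSP1 and DUSP7 were the 3 with a negative difference.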
